A study of Mus musculus with 6 samples.

Results

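The expressed zinc finger protein genes were described across 6 RNA-seq libraries of a mouse thymoma cell line. They are the genes with a symbol of Zfp followed by digits, without Zfp36, that had 5 or more FPKM in 427 cells given DMSO. Of the 25001 loci in each file, 331 carried such a symbol, 304 symbols had an annotated gene model, and 141 of these reached the minimum and are the genes described. FPKM is fragments per kilobase of transcript and per 1000000 fragments, so it is a level per length and allows genes to be set side by side. The genes were thus chosen by their FPKM in the 427 DMSO library, so that comparisons with this library are descriptions of genes picked for a level there.

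Each condition had 1 library, and no p-value was computed. The 427 cells (427.1.86, wild type) stably carried the pSUPER vector and received DMSO or 1 µM PMA, a phorbol ester that activates protein kinase C and induces shedding of the membrane protease epithin, for 2 h after serum had been withdrawn for 2 h. The SPPL2b knockdown derivative (SP2bKD) received the same treatments. SPPL2b is a protease that cuts within the membrane, and the labels give an siRNA where the methods describe a stable shRNA. SP2bKD-10, which is 1 clone, was transfected with GFP or with GFP plus the FLAG-tagged intracellular domain of epithin (EICD), and GFP-positive cells were sorted after 24 h. All groups were thus 427 cells, and the serum-free step is stated for the DMSO and PMA libraries only. The libraries were estimated to hold 24.9 to 28.6 × 1000000 fragments.

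Sppl2b was not lower in the libraries labelled SP2bKD: it had 9.90 FPKM in 427 DMSO, 6.86 in 427 PMA, 13.4 in SP2bKD DMSO, 9.37 in SP2bKD PMA, 11.4 in GFP and 13.2 in GFP plus EICD, so these values do not show the knockdown. The methods state that the clones were tested by qPCR for this mRNA, which was not analysed here. St14, the gene of epithin, had 69.6 FPKM with GFP and 615 FPKM with GFP plus EICD. Of 7 epithelial markers, the 6 with a value had 5 FPKM or more in all libraries, while all 6 T cell and all 5 fibroblast markers were under 1 FPKM in all libraries. Of 4 thymic epithelial markers, Foxn1 and Ly75 were above 5 FPKM throughout and Aire and Psmb11 were under 1 FPKM.

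Zinc finger proteins of the C2H2 type hold a zinc ion between a pair of cysteines and a pair of histidines, and arrays of such fingers bind DNA or RNA. In many of them a KRAB domain precedes the fingers and recruits the co-repressor TRIM28 (KAP1) and with it the histone methyltransferase SETDB1. Most KRAB zinc finger genes lie in clusters, and many of their proteins bind transposable elements. Translated from the GENCODE M21 annotation, 55 of the 141 genes (39.0%) matched a sequence pattern of the KRAB A box and 86 did not. The pattern was found in 312 of 21901 protein-coding genes, of which 94.9% also held a C2H2 finger. Genes with the pattern had a median of 11 fingers and the others a median of 7. In all, 121 genes encoded 3 or more fingers, 9 encoded 20 or more, led by Zfp142 with 36 and Zfp462 with 33, and 7 had no match to the finger pattern.

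The genes were not spread evenly over the genome. With genes at most 1 Mb apart joined into a run, 87 of the 141 lay in a run with at least 1 other gene of the same symbol type, and 12 runs held 3 or more of them. Chromosome 7 held 26 of its 77 Zfp genes above the minimum, chromosome 17 held 15 of 33, and chromosome 5 held 12 of 16. The run on chromosome 17 around Zfp101 is shown by the windows around the annotated starts of 4 of its genes, because all 6 of its genes above the minimum were lower with PMA in both lines. Zfp523, on the same chromosome outside this run, is added because it was lower with PMA to nearly the same degree in both lines and a window of it holds a match to the cyclic AMP response element. The windows run from 250 bases before to 50 bases after a RefSeq start (GRCm38.p6), and are written 5′ to 3′ on the strand of the gene, with capitals marking the matches named after the sequences. They are those of Zfp101 (chr17:33394588-33394887, minus strand), Zfp563 (chr17:33089117-33089416, plus strand), Zfp763 (chr17:33033332-33033631, minus strand), Zfp871 (chr17:32788238-32788537, minus strand) and Zfp523 (chr17:28176946-28177245, plus strand).
Zfp101: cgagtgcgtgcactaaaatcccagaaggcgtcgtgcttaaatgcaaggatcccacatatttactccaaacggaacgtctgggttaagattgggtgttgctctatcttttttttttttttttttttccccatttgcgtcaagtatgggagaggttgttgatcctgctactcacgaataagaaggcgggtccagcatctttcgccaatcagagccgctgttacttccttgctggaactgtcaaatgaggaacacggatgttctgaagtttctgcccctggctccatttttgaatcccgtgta
Zfp563: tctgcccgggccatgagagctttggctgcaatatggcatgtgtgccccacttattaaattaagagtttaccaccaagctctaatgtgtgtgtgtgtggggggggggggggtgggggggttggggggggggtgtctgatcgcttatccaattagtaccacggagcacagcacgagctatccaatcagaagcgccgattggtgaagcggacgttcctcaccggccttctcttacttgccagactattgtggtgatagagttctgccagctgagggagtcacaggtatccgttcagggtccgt
Zfp763: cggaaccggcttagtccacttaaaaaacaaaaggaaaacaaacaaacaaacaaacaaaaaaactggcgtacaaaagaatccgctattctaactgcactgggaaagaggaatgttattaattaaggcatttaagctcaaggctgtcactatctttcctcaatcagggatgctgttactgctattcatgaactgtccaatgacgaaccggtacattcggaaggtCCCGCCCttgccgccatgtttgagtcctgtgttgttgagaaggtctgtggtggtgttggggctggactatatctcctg
Zfp871: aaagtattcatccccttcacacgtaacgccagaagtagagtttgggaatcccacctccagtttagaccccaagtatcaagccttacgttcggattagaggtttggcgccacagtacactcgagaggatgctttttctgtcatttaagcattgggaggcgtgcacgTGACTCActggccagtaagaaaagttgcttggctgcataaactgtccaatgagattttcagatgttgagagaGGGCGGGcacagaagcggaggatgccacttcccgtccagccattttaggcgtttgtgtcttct
Zfp523: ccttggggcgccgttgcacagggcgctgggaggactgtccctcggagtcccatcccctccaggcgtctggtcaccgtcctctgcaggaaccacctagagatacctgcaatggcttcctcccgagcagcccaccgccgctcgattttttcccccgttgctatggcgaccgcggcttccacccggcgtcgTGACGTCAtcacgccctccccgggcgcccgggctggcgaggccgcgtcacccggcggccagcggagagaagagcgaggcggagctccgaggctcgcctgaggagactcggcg

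The capitals mark the Sp/KLF box GGGCGGG or its reverse complement CCCGCCC in Zfp763 and Zfp871, the AP-1 site TGAGTCA read as TGACTCA in Zfp871, and the CRE TGACGTCA in Zfp523. Zfp871 and Zfp523 each have another window, and the one printed was picked because it holds these matches. The other window of Zfp871 (chr17:32787498-32787797) holds none of the motifs searched. That of Zfp523 (chr17:28177168-28177467) holds the Sp/KLF box and no CRE. Windows of Zfp414 and Zfp81 in the run are not printed. The 7 motifs were searched on both strands in the windows, which were found for 115 of the 141 genes. The Sp/KLF box was in 47.0% of these 115 genes, in 56.6% of all genes with 5 FPKM or more in 427 DMSO and in 27.9% of all genes with a window. It separated the classes, with 24.5% of the genes with the KRAB pattern and 63.6% of those without. The ETS site CCGGAAG was in 20.9% of the genes, 23.5% of the expressed genes and 9.93% of all. The AP-1 site was in 2.61%, against 4.13% of the expressed genes and 5.95% of all, and the CRE in 4.35%, against 4.05% and 2.03%. The EGR site GCGTGGGCG and a 10-base CG-centred palindrome of TATA-less promoters were each in 1 gene (0.87%, against 1.57% and 1.49% of the expressed genes and 0.707% and 0.525% of all), and the 10-base NF-kB consensus was in none, with 0.174% of all genes holding it. A match is a run of letters in this window and no evidence of binding.

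The zinc finger genes were expressed at modest levels. Their median was 11.2 FPKM in 427 DMSO, 8.99 in 427 PMA, 11.7 in SP2bKD DMSO, 10.5 in SP2bKD PMA, 9.59 with GFP and 11.2 with GFP plus EICD, against 22.9 to 25.1 FPKM over the 8298 genes that passed the same minimum. Between 25 and 32 of the 141 genes had 20 FPKM or more in a library. Genes with the KRAB pattern were lower, with a median of 7.88 FPKM in 427 DMSO, than genes without it, with 14.5 FPKM. The highest KRAB gene by mean level, Zfp68, ranked 12 of the 141.

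**Figure D1:**
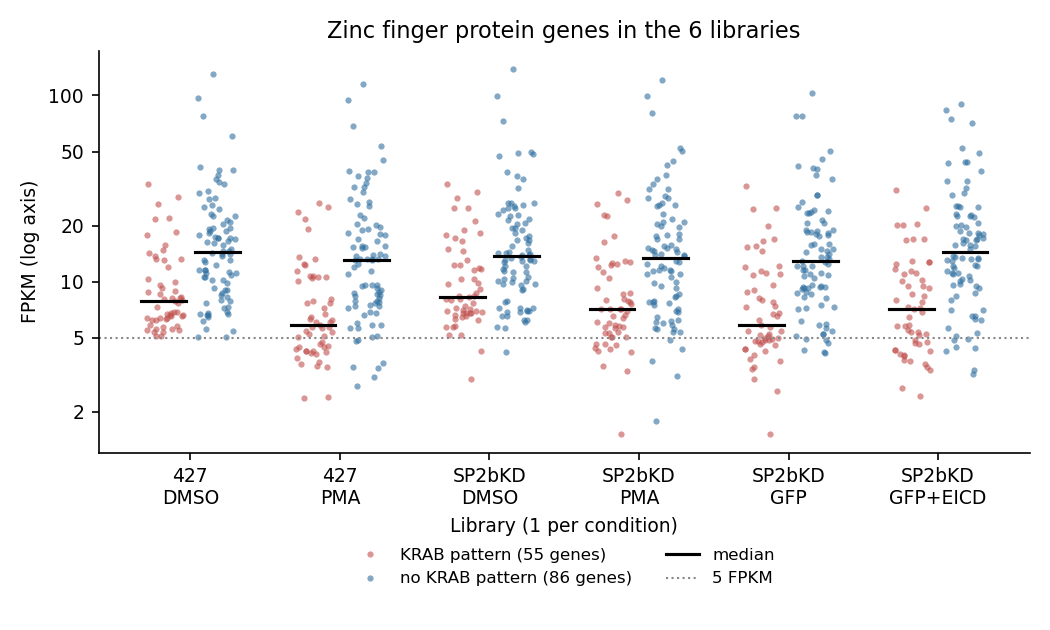
FPKM on a log axis of the 55 genes with and the 86 genes without a KRAB pattern in each of the 6 libraries, 1 point per gene, with the median as a bar and the minimum of 5 FPKM dotted. No gene is below the line in 427 DMSO, where the minimum was set, 26 are below it in 427 PMA and in GFP, and the KRAB genes sit lower in every library.

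The 5 genes with the highest mean level encode proteins of different kinds. Zfp207, which binds microtubules and the checkpoint protein BUB3 at the spindle, had 130 FPKM in 427 DMSO, 115 in 427 PMA, 139 in SP2bKD DMSO, 121 in SP2bKD PMA, 104 with GFP and 89.9 with GFP plus EICD. Zfp664 had 96.3, 94.3, 98.9, 98.7, 77.1 and 83.2 FPKM in the same order. Both were lower in the sorted libraries than in the other 4. The RNA-binding Zfp106 had 68.5 to 80.4 FPKM and Zfp706 had 49.0 to 60.7 FPKM. Zfp106 overlaps another annotated gene over 26.0% of its exonic bases, so part of its level may belong to that gene. Zfp598, the ubiquitin ligase that marks collided ribosomes, had 33.5, 38.9, 35.5, 44.4, 45.7 and 71.1 FPKM and was highest with GFP plus EICD.

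At the other end, the minimum cut through a continuous range of levels. Just inside it were Zfp462 with 5.05, Zfp697 with 5.08 and Zfp111 with 5.11 FPKM in 427 DMSO, and just outside it Zfp790 with 4.78, Zfp296 with 4.74 and Zfp951 with 4.72 FPKM. Zfp462 reached 12.4 FPKM in SP2bKD PMA and Zfp111 was under the minimum in 427 PMA, SP2bKD PMA and both sorted libraries.

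Levels varied by less than 2-fold across libraries for most of the genes, though somewhat more than over all genes. The ratio of the highest to the lowest library had a median of 0.724 on the log2 scale, against 0.646 over all 8298 genes, and 36 genes (25.5%, against 22.4% of all genes) exceeded 2-fold. In the 6 comparisons described here, 76 genes stayed within 1.5-fold, and the share of all genes that did was not computed. The smallest estimated number of fragments of a gene in a library was 58.4, so that the standard error from counting alone was at most 0.237 on the log2 scale and had a median of about 0.06. It covers counting error only. The 5 largest ratios were those of Zfp750 (2.91), Zfp825 (2.43), Zfp365 (1.92), Zfp362 (1.72) and Zfp397 (1.65).

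The lowest and highest libraries were unevenly shared. The 427 PMA library was lowest for 53 of the 141 genes (37.6%, against 27.4% of all genes) and the GFP library for 30 (21.3%, against 11.7%). SP2bKD DMSO was highest for 53 genes (37.6%, against 25%), and GFP plus EICD for 35 (24.8%, against 24.5%).

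PMA left no zinc finger gene more than 2-fold higher in 427 cells, where 2.23% of all genes were, and 6 more than 2-fold lower, where 2.4% of all genes were. The 6 are 4.26% of the 141. At 1.5-fold, a limit chosen after the values were seen, none of the genes was higher (6.06% of all genes) and 30 were lower, which is 21.3% against 10.7% of all genes. The sets differ in level, as 63 of the 141 genes and 1368 of the 8298 had under 10 FPKM in 427 DMSO. Under 10 FPKM, 19 of the 63 (30.2%) were more than 1.5-fold lower, against 329 of the 1368. From 10 FPKM up the shares were 14.1% and 8.05%. More than 2-fold lower were 6.35% against 6.65% under 10 FPKM, and 2.56% against 1.56% from 10 FPKM up. The median log2 fold change was -0.27 over the 141 genes and -0.097 over all 8298 genes. Scaling the libraries by the median ratio moves the median of all genes to 0.037 in 427 cells, so that the sign of a small change depends on the scaling, while the median of the zinc finger genes stays 0.17 below that of all genes under any scaling of whole libraries.

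In SP2bKD cells, PMA gave 1 gene more than 2-fold higher (2.49% of all genes) and 5 more than 2-fold lower (3.12% of all genes). At 1.5-fold, 2 genes were higher (6.71% of all genes) and 30 lower, which is again 21.3%, against 12.1% of all genes. Under 10 FPKM in 427 DMSO, 18 of 63 (28.6%) were more than 1.5-fold lower, against 342 of 1368 genes of all kinds. From 10 FPKM up the shares were 15.4% and 9.57%. More than 2-fold lower were 3.17% against 7.75% under 10 FPKM, and 3.85% against 2.21% from 10 FPKM up. The medians over the 141 genes and over all genes were -0.20 and -0.125, and -0.051 and 0.021 after median ratio scaling. The distance was -0.072 under both. This comparison shares no library with that in 427 cells and does not use the library that chose the genes.

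**Figure D2:**
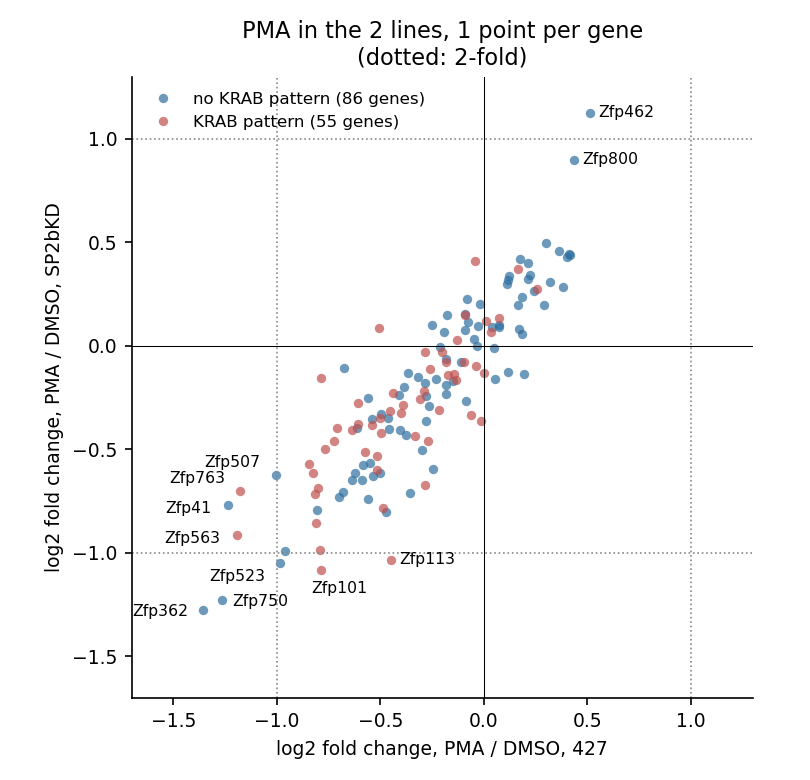
Log2 fold change with PMA in 427 cells (x axis) and in SP2bKD cells (y axis), 1 point per gene, red with and blue without a KRAB pattern, dotted lines at 2-fold. Zfp362 and Zfp750 are past 2-fold lower on both axes, Zfp462 and Zfp800 stand alone at the upper right, and the cloud leans to the lower left.

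The values of the lines went together across genes, with Pearson's r of 0.87 and Spearman's rho of 0.88 over the 141 genes and 0.83 and 0.78 over all 8298. Genes are not independent replicates, and these are descriptions. Both values were below 0 for 92 genes (65.2%, against 53.4% of all genes) and above 0 for 30 (21.3%, against 28.4%), and they had opposite signs for 19. Below the median of all genes, a count that does not depend on the scaling, 78 of the 141 genes lay in both lines. The share of all genes below it in both lines was not computed, so this count has no background beside it. Of the 30 genes lower by more than 1.5-fold in each line, 20 were shared, which is 66.7% of either list. Over all genes 604 were shared, which is 68.1% of the 427 and 60.1% of the SP2bKD list.

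Zfp362 and Zfp750 were lower by more than 2-fold in both lines. Zfp362 (chr4:128773088-128806134 on GRCm38, 6 fingers) had 15.03 FPKM in 427 DMSO, 5.87 in 427 PMA, 13.04 in SP2bKD DMSO, 5.38 in SP2bKD PMA, 16.0 with GFP and 17.8 with GFP plus EICD. Both PMA libraries stand below the other 4, and the log2 fold changes were -1.36 and -1.27 with counting errors of 0.08. Zfp750 (chr11:121510978-121519881), which promotes the late differentiation of epidermal cells downstream of p63, had 6.63, 2.75, 4.21, 1.79, 11.6 and 13.6 FPKM in the same order. Its log2 fold changes with PMA were -1.27 and -1.23, with counting errors of 0.11 and 0.14.

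Zfp523 (7 fingers), a relative of the promoter-binding factor Zfp143, showed the same shape close to the 2-fold limit. It had 14.6 and 14.8 FPKM in the DMSO libraries, 7.39 and 7.15 FPKM in the PMA libraries, and 13.6 and 16.9 FPKM in the sorted ones, with log2 fold changes of -0.99 and -1.05. Zfp143 itself stayed between 8.66 and 10.1 FPKM in the 6 libraries. Zfp318, known for its part in IgD expression in B cells and named here after its values were seen, had 6.74 and 6.204 FPKM with DMSO and 3.46 and 3.12 with PMA.

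The other genes lower by more than 2-fold passed that limit in 1 line each. In 427 cells these were Zfp41 (7.23 to 3.06 FPKM, log2 fold change -1.24), Zfp563 (5.53 to 2.42, -1.19), Zfp763 (5.36 to 2.37, -1.18) and, outside the 5 lowest, Zfp507 (10.2 to 5.08, -1.01). In SP2bKD cells they had -0.77, -0.91, -0.70 and -0.62. In SP2bKD cells the 2-fold limit was also passed by Zfp101 (18.3 to 8.65 FPKM, -1.08) and Zfp113 (12.3 to 5.99, -1.03), which had -0.78 and -0.45 in 427 cells. All of these were lower in both lines, and whether the lines differ was not tested, as no condition has a second library. Zfp507 overlaps other annotated genes over 28.5% of its exonic bases.

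Zfp462, a large protein with 33 fingers that keeps heterochromatin at lineage genes in embryonic stem cells, was the 1 gene more than 2-fold higher. It had 5.05 FPKM in 427 DMSO, 7.22 in 427 PMA, 5.69 in SP2bKD DMSO, 12.4 in SP2bKD PMA, 5.09 with GFP and 4.27 with GFP plus EICD. The PMA libraries were the 2 highest of the 6, with log2 fold changes of 0.51 in 427 and 1.13 in SP2bKD cells and counting errors of 0.05 and 0.04. Zfp800, with 16.2 and 22.0 FPKM in 427 and 11.2 and 20.9 FPKM in SP2bKD cells, had 0.44 and 0.90.

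The lower values with PMA were more frequent among the KRAB genes. With PMA, 45 of the 55 genes with the KRAB pattern (81.8%) were below 0 in both lines, against 47 of the 86 without it (54.7%) and 53.4% of all genes. Relative to the median of all genes, 37 of the 55 and 41 of the 86 were below in both, again without the share of all genes. The median log2 fold change was -0.40 and -0.32 for KRAB genes in 427 and SP2bKD cells and -0.18 and -0.13 for the others, the last of which turned to 0.012 after median ratio scaling. More than 1.5-fold lower were 16 KRAB genes (29.1%) in 427 and 12 (21.8%) in SP2bKD cells, and 14 (16.3%) and 18 (20.9%) of the others. Among the 86, the 19 that encode under 3 fingers had medians of -0.25 and -0.50, with 6 and 8 of them past 1.5-fold lower. At this limit the shares of the 2 classes stood apart in 427 cells and were nearly equal in SP2bKD cells.

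Since KRAB genes were expressed at lower levels, the classes were also split at 10 FPKM in 427 DMSO. Below it, the median with PMA in 427 cells was -0.45 over 39 KRAB genes, -0.24 over 24 others and -0.25 over 1368 genes of all kinds. From 10 FPKM up it was -0.22 over 16 KRAB genes, -0.18 over 62 others and -0.078 over 6930 genes. In SP2bKD cells the values were -0.38, -0.17 and -0.26 below 10 FPKM and -0.18, -0.12 and -0.11 above it. KRAB genes had the lowest median in both ranges and both lines. At 1.5-fold this order of the classes held in 427 cells only. Below 10 FPKM, 13 of 39 KRAB genes and 6 of 24 others were lower there, and 18.8% and 12.9% from 10 FPKM up. In SP2bKD cells the KRAB shares were smaller than those of the others. They were 25.6% against 33.3% below 10 FPKM and 12.5% against 16.1% above it. Of all genes, 329 and 342 of 1368 were lower in the lines below 10 FPKM, and 8.05% and 9.57% above it. Low level moved with lower values in all genes, and its part in the result was not tested beyond this split.

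Of 18 genes of the co-repressor machinery that the KRAB domain recruits, none was more than 2-fold higher or lower in any of the 6 comparisons. Per comparison and direction 0.169% to 3.12% of all genes were, so a list of 18 is too short to stand apart from that. Trim28 had 179, 154, 175, 165, 174 and 131 FPKM in the order of the libraries, and Setdb1, the methyltransferase, had 17.5 to 23.0 FPKM. Atf7ip, the partner of Setdb1, was the gene of this list that PMA took below 1.5-fold in both lines, from 18.5 to 10.8 and from 22.0 to 12.7 FPKM, with log2 fold changes of -0.78 and -0.80. Chd3, a nucleosome remodeller, was past 1.5-fold in SP2bKD cells, from 96.1 to 63.4 FPKM. At 1.5-fold, 5.56% of the 18 were lower in 427 and 11.1% in SP2bKD cells, against 10.7% and 12.1% of all genes.

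Neighbouring genes differed in how far they went with PMA. The run on chromosome 17 between positions 32765450 and 33631779 holds 11 Zfp genes, 6 of them above the minimum, and all 6 were lower in both lines. Of the genes under it, Zfp472 had 4.29 and 4.69 FPKM in 427 and 3.86 and 4.72 FPKM in SP2bKD cells, and was higher with PMA in both. Zfp799 (log2 fold changes -1.24 and -1.34) and Zfp952 (-0.41 and -0.13) were lower in both. Zfp811 and Zfp870 had at most 0.0914 and 0.0323 FPKM in a library. Zfp101, Zfp563 and Zfp763 are described above. Zfp871 had 26.3 and 19.2 FPKM in 427 and 28.2 and 22.6 FPKM in SP2bKD cells, Zfp414 had 10.5 and 7.45 and 11.4 and 7.46 FPKM, and Zfp81 had 6.68 and 6.09 and 6.53 and 5.83 FPKM. The median of the run was -0.64 and -0.66, and each of the 6 was below the median of all genes in both lines. Zfp414 shares 43.9% of its 50-base stretches with another gene, so that its reads could be split.

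With PMA, 65.2% of the 141 genes and 53.4% of all genes were below 0 in both lines. Runs of other genes were not counted, so the counts of runs have no background. Of the 12 runs with 3 or more of the genes, 6 had all of them below 0 in both lines. In 3 runs all of them were below the median of all genes in both lines. The 3 were the chromosome 17 run, the run of Zfp672, Zfp692 and Zfp867 on chromosome 11 (medians -0.37 and -0.25) and that of Zfp68, Zfp113 and Zfp157 on chromosome 5 (-0.50 and -0.85). In contrast, 2 of the 3 genes of a run on chromosome 7, Zfp146 and the KRAB gene Zfp568, were above 0 in both lines, and its median was 0.17 and 0.37. On chromosome 15, Zfp7 and Zfp623 were above 0 beside Zfp41, Zfp251 and Zfp707, with both kinds in 1 run, though Zfp7 shares 14.5% of its 50-base stretches with another gene.

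**Figure D3:**
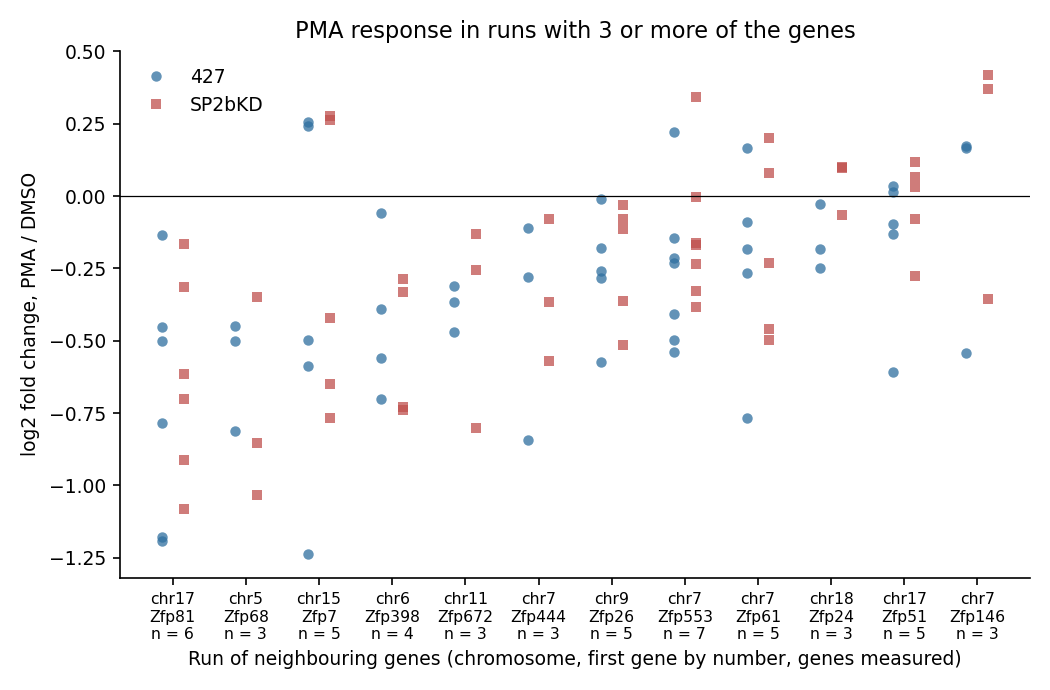
Log2 fold change with PMA of the genes in the 12 runs of neighbouring genes that hold 3 or more of them, circles for 427 and squares for SP2bKD cells, 1 point per gene. The 6 genes of the chromosome 17 run at the left are all below 0 in both lines, while the runs at the right hold genes on both sides of 0.

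Other families of C2H2 genes were counted by symbol. The 28 Zbtb genes above the minimum, which carry a BTB domain, had medians of -0.15 and -0.075 with PMA in the lines, and the 5 Zscan genes, with a SCAN domain, had -0.46 and -0.45. The 5 Zkscan genes had -0.74 and -0.49. The 7 Klf genes had 0.16 and 0.060. No member of these families was more than 2-fold lower with PMA except 1 Zkscan gene in 427 cells, and none was more than 2-fold higher. Of all genes, 2.4% and 3.12% were more than 2-fold lower in 427 and SP2bKD cells, and 2.23% and 2.49% higher.

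Between the lines without PMA, the zinc finger genes were close to each other. None was more than 2-fold higher in the library labelled SP2bKD than in 427 DMSO (0.88% of all genes) and 1 was more than 2-fold lower (1.17% of all genes). With PMA the counts were again 0 (0.578% of all genes) and 1 (1.12% of all genes). The medians were 0.073 with DMSO and 0.12 with PMA, against 0.031 and 0.016 over all genes. At 1.5-fold, 1 gene was higher (4.28% of all genes) and 3 lower (4.15%) with DMSO, and 8 were higher (3.05%) and 2 lower (3.87%) with PMA.

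The gene past 2-fold was Zfp825 (KRAB pattern, 6 fingers) in both comparisons. It had 8.22 FPKM in 427 DMSO, 4.75 in 427 PMA, 3.01 in SP2bKD DMSO, 1.52 in SP2bKD PMA, 1.51 with GFP and 2.44 with GFP plus EICD. Both 427 libraries were above all 4 SP2bKD libraries, with log2 fold changes of -1.45 with DMSO and -1.64 with PMA and counting errors of 0.15 and 0.20. It shares 28.7% of its 50-base stretches with other genes, so its reads could be split between copies, and without the 18 genes that share or overlap sequence no zinc finger gene passed 2-fold between the lines. Zfp750 was also lower in SP2bKD cells, by -0.65 with DMSO and -0.61 with PMA.

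KRAB genes were somewhat higher in the SP2bKD libraries. Their median was 0.16 with DMSO and 0.24 with PMA, with 42 and 43 of 55 above 0, against -0.023 and 0.037 over the other 86, with 42 and 53 above 0. The comparison with PMA does not use the library that chose the genes. Relative to the median of all genes, the KRAB median was 0.13 and 0.22 higher, a distance that scaling of whole libraries leaves in place. SP2bKD is a clone, and the label and the clone cannot be told apart.

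The log2 fold changes with PMA were also set against each other between the lines. Their difference, SP2bKD minus 427, had a median of 0.061 over the 141 genes and 0.0013 over all genes, and it was above 0 for 94 of 141 (66.7%, against 50.2% of all genes). It was more than 1.5-fold higher for 3 genes (2.13%, against 1.64% of all genes) and lower for 0 (2.76% of all genes). None passed 2-fold, where 0.313% of all genes were higher and 0.711% lower. With 1 library per condition the difference was not tested. It shares the 427 DMSO library with the rule, which favours genes that were high there.

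Sorted GFP-positive SP2bKD cells differed more from the SP2bKD DMSO library. More than 2-fold higher were 2 zinc finger genes (1.9% of all genes) and more than 2-fold lower were 7, which is 4.96% against 1.75% of all genes. At 1.5-fold, 4 were higher (5.86% of all genes) and 27 lower, which is 19.1% against 7.44% of all genes. The median was -0.24, against -0.063 over all genes, and the distance between the medians was -0.17. Transfection, sorting and the serum-free step with DMSO differ together between these libraries and cannot be told apart. Fos, an immediate early gene, had 0.823 FPKM in SP2bKD DMSO and 148 FPKM with GFP, and Egr1 had 5.02 and 88.8 FPKM, and the part of that change in the zinc finger values was not tested.

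Past 1.5-fold, KRAB genes carried most of the lower values, while 48 KRAB genes and 57 others were below 0. Of the 55, 21 (38.2%) were more than 1.5-fold lower with GFP, against 6 of the 86 others (6.98%), and the medians were -0.47 and -0.16. Below 10 FPKM in 427 DMSO the medians were -0.53 over 39 KRAB genes, -0.29 over 24 others and -0.16 over 1368 genes of all kinds, and from 10 FPKM up they were -0.26, -0.14 and -0.049. Without the genes that share or overlap sequence, 15 of 44 KRAB genes (34.1%) and 6 of 79 others (7.59%) were more than 1.5-fold lower. This comparison uses neither 427 library.

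**Figure D4:**
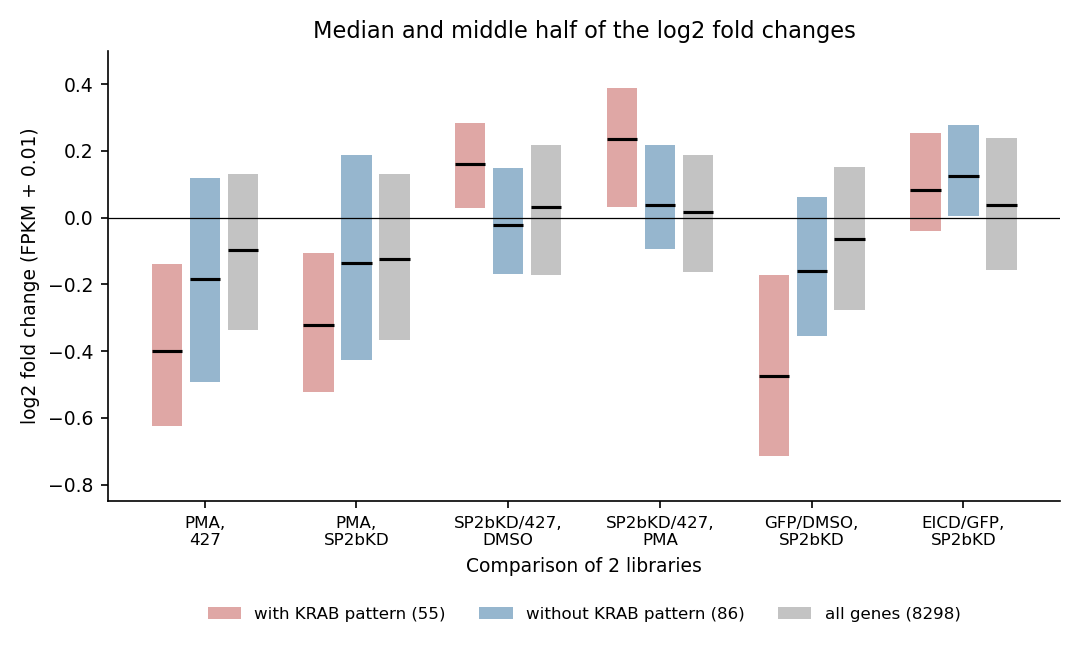
Median (black bar) and interquartile range (coloured box) of the log2 fold changes in the 6 comparisons, for the 55 genes with a KRAB pattern, the 86 without and all 8298 genes. The KRAB boxes lie lowest in both PMA comparisons and in GFP against DMSO and highest in the comparisons of SP2bKD with 427 cells, and the classes overlap in all 6.

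The lowest value with GFP belonged to Zfp397 (9 fingers, no KRAB pattern). It had 9.83 and 9.64 FPKM in the 427 libraries, 12.1 and 12.99 in SP2bKD DMSO and PMA, 4.13 with GFP and 6.52 with GFP plus EICD. The sorted libraries were the 2 lowest, and the log2 fold change of GFP against DMSO was -1.55 with a counting error of 0.07. The KRAB genes Zfp101 (18.3 to 6.83 FPKM, -1.42), Zfp563 (6.26 to 2.59, -1.27), Zfp60 (11.9 to 5.01, -1.25) and Zfp935 (6.62 to 3.02, -1.13) followed, and Zfp931 (7.95 to 3.87, -1.04) and Zfp367 (38.6 to 19.0, -1.02) completed the 7. Zfp935 shares all of its 50-base stretches with other genes, and Zfp931 shares 16.7%. In the chromosome 17 run 5 of 6 genes were lower with GFP, with Zfp414 at 0.01 and a median of -0.80.

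Zfp750 and Zfp365 were the 2 genes more than 2-fold higher with GFP. Zfp750 went from 4.21 to 11.6 FPKM, a log2 fold change of 1.46 with a counting error of 0.09, and had 13.6 FPKM with GFP plus EICD. Trp63, the gene of p63, had 31.8, 28.6, 30.5, 20.7, 62.7 and 78.7 FPKM in the order of the libraries. Its highest libraries were the sorted ones, as for Zfp750, and its part in the Zfp750 values was not tested. Zfp365, a coiled-coil protein of the centrosome, had 8.49, 6.90, 6.86, 4.84, 17.5 and 18.4 FPKM, with both sorted libraries above the other 4 and a log2 fold change of 1.35.

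**Figure D5:**
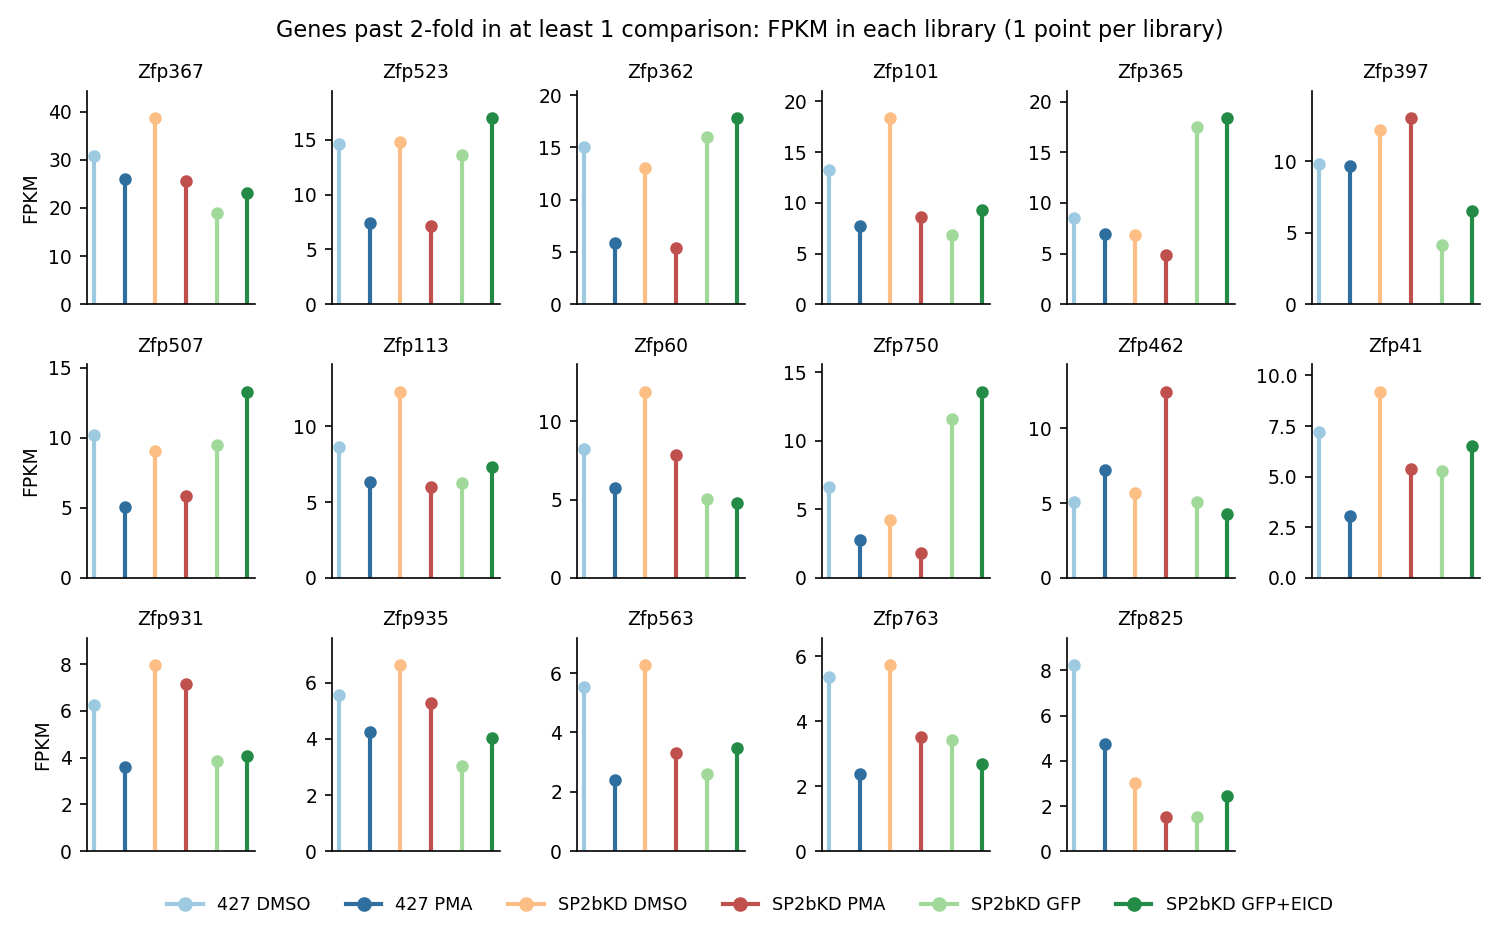
FPKM in each of the 6 libraries, 1 point per library with a stem from 0, for the 17 genes past 2-fold in at least 1 comparison. The share of all genes past 2-fold in at least 1 comparison was not computed. Zfp362 and Zfp523 are low in both PMA libraries, Zfp750 and Zfp365 are high in both sorted libraries, Zfp462 is highest in SP2bKD PMA and Zfp825 is lower in all SP2bKD libraries.

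With EICD no zinc finger gene was more than 2-fold higher than with GFP alone, where 1.31% of all genes were, and none was more than 2-fold lower, where 0.169% were. At 1.5-fold, 7 were higher, which is 4.96% against 6.0% of all genes, and 4 were lower, which is 2.84% against 2.0%. The median was 0.12, against 0.038 over all genes, and 103 of 141 were above 0 (73.0%, against 55% of all genes). The order depended on the level. Under 10 FPKM in 427 DMSO the median was 0.12 with 66.7% above 0, below the 0.19 and 72.7% of all genes there. From 10 FPKM up it was 0.12 with 78.2% above 0, against 0.0093 and 51.5% of all genes.

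The 7 higher genes were Zfp318, Zfp516, Zfp825, Zfp346, Zfp397, Zfp598 and Zfp623. Zfp318 went from 4.90 to 9.48 FPKM (log2 fold change 0.95, counting error 0.04), and Zfp516, which activates the brown fat gene Ucp1, from 13.6 to 22.6 FPKM (0.74). Zfp346, which binds double-stranded RNA, went from 10.5 to 16.9 FPKM (0.70), and Zfp598 from 45.7 to 71.1 FPKM (0.64). Zfp346 had 19.3 FPKM in SP2bKD DMSO, above both sorted libraries, and so did Zfp397, whereas Zfp598 and Zfp516 had their highest level with EICD. The 4 lower genes were Zfp771 (5.21 to 3.19 FPKM, -0.70), Zfp668 (7.19 to 4.47, -0.68), Zfp560 (5.87 to 3.78, -0.63) and Zfp444 (14.1 to 9.26, -0.61). Those of the 4 and the 7 not covered by the naming rule were named after their values were seen.

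Of 9 genes of ribosomes, RNA and the spindle, 8 were above the minimum. None of the 8 passed 2-fold in either PMA comparison, where 2.23% to 3.12% of all genes did per direction. Zfp346 was the lowest of the 8 in SP2bKD cells, from 19.3 to 11.8 FPKM (-0.71), and had -0.35 in 427 cells and -0.89 with GFP. Zfp638, a nuclear protein that binds nucleic acids and recruits the HUSH silencing complex to viral DNA, was the lowest in 427 cells, with 41.5 and 27.7 FPKM in 427 and 47.1 and 31.6 FPKM in SP2bKD cells, a log2 fold change of -0.58 in both. Zfp622, a factor of the large ribosomal subunit, had 0.32 and 0.31, from 16.3 to 20.3 and from 14.3 to 17.7 FPKM. Zfp326, which couples elongation to splicing, stayed between 35.8 and 50.5 FPKM. Of the 3 genes of signalling, ubiquitin and SUMO, Zfp330 and the SUMO ligase Zfp451 were above the minimum. Zfp451 had 35.8 and 33.9 FPKM in 427 cells and 24.3 to 29.8 in the 4 SP2bKD libraries, all of which were lower.

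Of the 19 transcription factors with a known target or partner, 16 were above the minimum, and Zfp462 was the 1 past 2-fold with PMA. Zfp281, a factor that binds GC-rich promoters in stem cells, had 11.2 and 13.8 FPKM in 427 and 9.74 and 13.8 FPKM in SP2bKD cells, log2 fold changes of 0.30 and 0.50. Zfp644, a partner of the H3K9 methyltransferases G9a and GLP, had 25.9 and 18.9 and 26.4 and 19.97 FPKM, or -0.46 and -0.40, and Zfp292 had -0.38 and -0.43. Zfp148, Zfp384, Zfp410, Zfp592, Zfp687, Zfp335, Zfp219, Zfp217 and Zfp131 lay within 0.34 of 0 in both lines. Zfp410, which activates the remodeller gene Chd4, had 13.2 to 16.8 FPKM in the 6 libraries, and Chd4 had 96.6 to 129 FPKM. Zfp703, a co-repressor of the NET family, had 28.2, 32.3, 25.5, 23.2, 40.7 and 52.3 FPKM and was highest in the sorted libraries.

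Of 5 genes known to silence retrotransposons or guard imprints, 4 were above the minimum, all with the KRAB pattern. Zfp445, which acts at imprinted regions, had 28.5, 25.3, 30.4, 27.6, 24.8 and 24.8 FPKM, and Zfp932 had 20.2 to 24.9 FPKM, though it shares 45.2% of its 50-base stretches with other genes. Zfp809, which silences retroviruses in embryonic cells, had 9.29, 6.49, 10.3, 7.12, 5.15 and 6.50 FPKM, lower with PMA by -0.52 and -0.53 and lower with GFP to just inside 2-fold. Zfp568, the repressor of a placental Igf2 transcript, went the other way with PMA, from 9.55 to 10.7 and from 8.09 to 10.5 FPKM (0.17 and 0.37).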

How the data were processed

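The authors sequenced poly(A) RNA of 6 libraries, 1 per condition, and deposited FPKM values per locus. Per the labels and methods, reads were aligned to GRCm38 with TopHat2 (2.1.1), and Cufflinks and Cuffdiff (2.1.1) assembled and quantified transcripts. The submitters' notes also list STAR (2.4.0b), with a role not given in the sources used here, and strand use is not stated. The FPKM scaling assumes equal total RNA per library, so a general shift cannot be seen.

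From the deposited FPKM, log2 ratios were computed with 0.01 added to each value (for EICD against GFP, to the EICD value alone). Called means past 2-fold, and a second limit of 1.5-fold was added after the values were seen. The background was all 8298 genes with 5 FPKM or more in 427 DMSO, or 8297 for EICD against GFP. With 1 library per condition no test or replicate spread exists. Depth was estimated from the FPKM that 1 fragment is worth, and standard errors from it cover counting error only. The zinc finger genes, the lists and the limits were chosen with earlier results of these data known. Genes were named by fixed rules: the 5 highest mean levels, up to 5 higher and 5 lower past 2-fold per comparison, the 5 largest ranges, the 3 nearest the minimum on each side and the listed roles.

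KRAB and C2H2 patterns were matched to translated GENCODE M21 coding sequences, to which all 141 genes matched by gene ID. Sharing over 10% of 50-base stretches or overlapping over 20% of exonic bases made a gene uncertain, which held for 18. Promoter windows came from RefSeq (GRCm38.p6). The scripts were tested on simulated data and used Python 3.11.15, NumPy 2.4.6, pandas 2.3.3, SciPy 1.17.1, Biopython 1.88 and matplotlib 3.10.9. Another added amount, other minima, scalings, gene model classes and summed loci were tried as alternatives.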

Additional observations from a re-analysis of the deposited data

Results flagged for a closer look

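Outside the 141 genes, 6 loci with a Zfp symbol that were under the minimum or no annotated model had 5 FPKM or more in some library and at least 2 times their level in 427 DMSO there. With no limit on the ratio, 21 symbols under the minimum reached 5 FPKM in another library. A locus assembled without annotation on chromosome 13 and given the symbol Zfp120 had 944 FPKM with GFP plus EICD and 9.99 FPKM in 427 DMSO. Another such locus on chromosome 16 had 36.4 FPKM in SP2bKD DMSO and 14.2 in 427 DMSO. Zfp93 had 44.6 FPKM in SP2bKD DMSO and 37.2 with GFP, against 1.71 in 427 DMSO, 1.958 in SP2bKD PMA and 2.20 with GFP plus EICD. Zfp579 had 6.99 FPKM in SP2bKD DMSO against 2.11 in 427 DMSO. Zfp827 reached 6.34 FPKM and Zfp946 7.86 FPKM with GFP plus EICD, against 2.84 and 2.98 in 427 DMSO. None of these values has a second library.

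Of the 19 zinc finger genes with opposite signs with PMA in the lines, 4 that the text names had values whose counting intervals left out 0 in both. The log2 fold change in SP2bKD cells minus that in 427 cells was 0.3246 for Zfp106, 0.3082 for Zfp451, 0.2579 for Zfp706 and -0.3314 for Zfp703. The signs are those of the deposited scaling. Median ratio scaling moved the all-gene median from -0.0973 to 0.0373 in 427 and from -0.125 to 0.0214 in SP2bKD cells. Zfp451 in 427 cells (-0.0794) and Zfp703 in SP2bKD cells (-0.1363) had values smaller than these shifts, so their opposite signs depend on the scaling. The difference was not tested.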

How the results depend on the processing

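No paired analysis was possible because each condition had 1 library. For the same reason no library could be left out. Of 209 recomputed values, 154 stayed within the limits used here, 53 moved and 2 reversed. The limits were 1.5 times the count, or, for a median, its 95% order-statistic interval over the genes, which is no spread between samples. With 1 FPKM added to both values, 3 genes were more than 2-fold lower with PMA in 427 cells, 2 with PMA in SP2bKD cells and 4 with GFP. A minimum of 1 FPKM gave 228 genes. Of these, PMA gave 1 higher and 16 lower (7.02%) in 427 cells and 16 lower (7.02%) in SP2bKD cells. SP2bKD against 427 gave 5 higher and 2 lower with DMSO and 3 higher and 4 lower with PMA. GFP gave 23 lower (10.1%), and EICD gave 4 higher and 2 lower. The share of the 9826 genes of all kinds at this minimum that passed 2-fold was not computed. A minimum of 10 FPKM gave 78 genes. With PMA in 427 cells 2 were lower and the median was -0.18, in SP2bKD cells 0 were higher and 3 lower, between the lines 0 were lower with DMSO or PMA and the median with DMSO turned to -0.0142, and with GFP 0 were higher and 2 lower with a median of -0.1645. With the minimum set in SP2bKD DMSO (152 genes), 3 were higher and 0 lower between the lines with DMSO, 0 lower with PMA, 1 higher with GFP and 1 lower with EICD. With the minimum on the mean of the libraries (136 genes), the values were 2 higher and 0 lower with DMSO, 0 lower with PMA and 1 lower with EICD. Upper quartile scaling gave 3 lower and a median of -0.1287 with PMA in SP2bKD cells, and a median difference between the lines of 0.1074. Median ratio scaling gave medians of -0.1329 with PMA in 427 cells, -0.0505 with 2 higher and 2 lower in SP2bKD cells, -0.1346 with GFP and 0.0412 with EICD. Over the 14 genes of the KNOWN class, no gene passed 2-fold in any of these comparisons (0 higher, 0 lower), and the medians were -0.1408 with PMA in 427 cells, -0.0532 (reversed) and 0.0103 between the lines with DMSO and PMA, -0.1163 with GFP and 0.1654 with EICD. Without the 18 uncertain genes, which leaves 123, 0 genes were lower between the lines with DMSO or PMA. With 0.1 FPKM added, no value passed these limits, and 5 in place of 6 genes were more than 2-fold lower with PMA in 427 cells. Summing the loci of a symbol left all values as they were. The causes were not tested, beyond the change in which genes enter. Counting error was small beside the folds named, and the spread between samples of a condition is unknown.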

Other observations

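Outside the zinc finger genes of the Zfp symbol, the 7 Klf genes above the minimum, which encode factors with a triplet of fingers that bind GC-rich promoters, stood higher in the sorted cells. Their median log2 fold change of GFP against SP2bKD DMSO was 0.80, with 6 of 7 above 0 and 2 past 2-fold, where 1.9% of all genes were past 2-fold higher. With EICD against GFP all 7 were above 0, with a median of 0.32 and none past 2-fold. The 28 Zbtb genes had a median of -0.17 with GFP and 0.098 with EICD, and 4 of them were more than 1.5-fold higher with EICD (14.3%, against 6.0% of all genes).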
